A study of Zea mays with 18 samples.

Results

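Roots of the maize line ZmNRL1-OE were compared with roots of the inbred line B73 at high nitrate, across all genes of the deposited count table. The comparison rests on 6 of the 18 libraries of the study, chosen by their labels: 3 of ZmNRL1-OE and 3 of B73, all from 10-day-old seedlings held for 48 h in a modified Hoagland nutrient solution with 15 mM nitrate. B73 is the inbred line whose genome serves as the reference of the species, and ZmNRL1-OE is labelled as an overexpression genotype. The other 12 libraries were roots of the same pair of genotypes at 0.15 mM nitrate, and of the mutant zmnrl1-m at both nitrate levels. No source used here gives the promoter of the transgene, the number of transgenic events, the inbred background of ZmNRL1-OE or the number of plants behind a library. Reads of all genotypes were counted against the B73 build, per the submitters' processing notes. Whether replicates were grown apart is not stated either. A p-value here covers only the spread between libraries of a group, estimated over all 18 libraries, and this spread may be technical.

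Nitrate is the main form of nitrogen that maize roots take from the soil. It enters through dedicated transporters, is reduced by nitrate reductase and nitrite reductase to ammonium, and is built into glutamine and glutamate; it is also a signal that sets the activity of many root genes within hours. ZmNRL1, the protein that ZmNRL1-OE is labelled to overexpress, carries the plant domains DUF630 and DUF632 according to the series title, which presents it as promoting the response to nitrogen stress. The comparison at high nitrate asks how the root transcriptome of the overexpression line differs from that of B73 where nitrogen is ample.

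The 6 libraries held between 31919663 and 39003607 counted reads, and 28737 to 29771 genes had at least 1 count in them. The median gene differed between 2 libraries by 0.147 to 0.189 on the log2 scale within B73, by 0.130 to 0.199 within ZmNRL1-OE and by 0.226 to 0.357 between the genotypes. Pearson's r of log2 CPM across genes was 0.984 to 0.991 within B73, 0.989 to 0.993 within ZmNRL1-OE and 0.906 to 0.922 between them. CPM is the count of a gene over the size of its library in megareads, with sizes scaled by TMM (trimmed mean of M-values). The files name genes by identifier and do not pair identifiers with names, so markers of root tissue and the transcript of ZmNRL1, the check on the genotype label, were not analysed here. In these bulk samples, fewer cells of a type and less RNA per cell cannot be told apart.

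A large share of the root transcriptome differed between ZmNRL1-OE and B73 at high nitrate. Of 27134 genes tested, 7385 (27.2%) were called, that is, had an edgeR quasi-likelihood p under 0.05 after Benjamini-Hochberg adjustment. In ZmNRL1-OE 3957 genes (14.6%) were higher and 3428 (12.6%) lower. A difference of at least 2-fold was found in 1873 of the higher genes (6.90% of those tested) and 1286 of the lower genes (4.74%). Small differences made up more of the lower list: 1395 of the lower genes (40.7%) were apart by under 1.5-fold, against 1171 of the higher genes (29.6%). At the other end, 520 genes were at least 16-fold higher and 339 at least 16-fold lower. The shares of counts that the called genes took are given for their size alone, since the calls in these libraries fix their direction. The higher genes took 6.78% to 7.43% of all counts in the B73 libraries and 11.8% to 13.1% in those of ZmNRL1-OE, and the lower genes took 17.5% to 18.4% and 11.3% to 12.3%. Without any overlap between the 3 and 3 libraries, 5717 genes (21.1%) were higher and 5459 (20.1%) lower. With library sizes alone in place of TMM, 4661 genes were called higher and 2782 lower, and the median of all genes moved from -0.002 to 0.050 on the log2 scale.

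The direction of the called differences went with the level of the gene. The shares by level are given for TMM scaling alone, and small differences depend most on the scaling. Tested genes were put into 10 classes of equal size by mean CPM. In the highest class (84.4 CPM and above), 8.92% were higher and 14.6% lower in ZmNRL1-OE, and 1.69% and 1.62% were called and apart by at least 2-fold. In class 2 from the bottom (0.543 to 1.97 CPM), 20.2% were higher and 12.4% lower, and 17.1% and 10.1% were called and apart by at least 2-fold. The median absolute log2 difference of called genes was 3.50 in the lowest class and 0.47 in the highest. A small difference passes the test more readily in a gene with many counts, and the part of depth in these sizes was not tested. In 10 classes by gene length, as implied by the count and FPKM tables, 30.9% of the shortest genes and 20.6% of the longest were called.

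**Figure D1:**
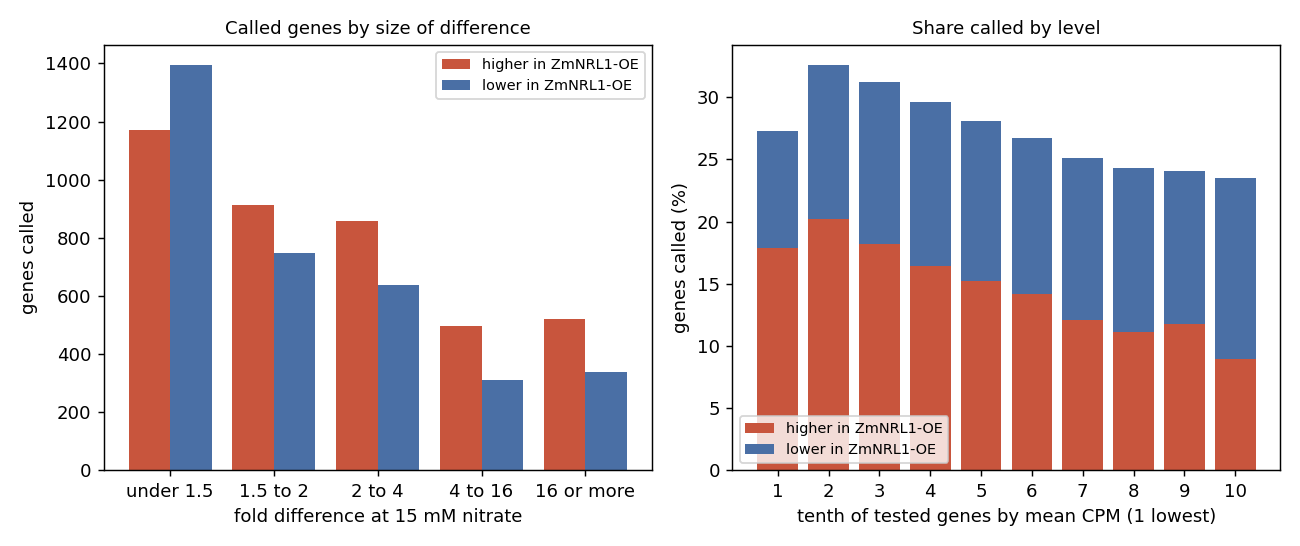
Left, genes called between ZmNRL1-OE and B73 at 15 mM nitrate (vertical axis, number of genes) by size of the fold difference (horizontal axis). Right, the percentage of tested genes called in each of 10 classes of mean CPM, higher in red and lower in blue; the share higher was 20.2% in class 2 and 8.92% in class 10.

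Genes with the largest fold difference were close to silent in one genotype and well expressed in the other. The 2 higher and 2 lower called genes with the largest fold are given, among those that reached a mean of 5 CPM in a genotype, had counts in all 6 libraries and did not overlap between genotypes. Zm00001d005679 stood at 0.128, 0.0307 and 0.0306 CPM in the B73 libraries and at 21.1, 25.8 and 26.9 CPM in those of ZmNRL1-OE. It was thus high in every ZmNRL1-OE library, by 8.44 ± 0.45 on the log2 scale (SE, edgeR adjusted p = 2.53e-10). The size rested on 7 counts in B73, and without replicate 1 of B73 it was 9.47. Zm00001d022309 stood at 0.128, 0.0614 and 0.183 CPM in B73 and at 38, 45.1 and 44.8 CPM in ZmNRL1-OE, a log2 difference of 8.37 ± 0.27 (adjusted p = 5.85e-13). The mutant was sequenced at the same nitrate level and shares the B73 libraries as its control, so its levels are set beside those of ZmNRL1-OE here and below with no test. At high nitrate zmnrl1-m had 0.566 ± 0.0875 CPM of Zm00001d005679 and 18.0 ± 1.19 CPM of Zm00001d022309 (SD, n = 3).

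Zm00001d012797 and Zm00001d040368 showed the reverse pattern. Zm00001d012797 stood at 133, 112 and 120 CPM in B73 and had 1 count in each ZmNRL1-OE library, 3 against 12790 in B73. The ratio, per scaled library size, was 4440 (95% exact binomial interval 1520 to 21500, counting error only; edgeR adjusted p = 6.48e-15). Zm00001d040368 stood at 100, 98.4 and 100 CPM in B73 and at 0.0834, 0.0608 and 0.0251 CPM in ZmNRL1-OE, a log2 difference of -10.72 ± 0.38 (SE, adjusted p = 1.68e-12). The 3 B73 libraries were nearly equal, and all libraries of ZmNRL1-OE were at the edge of detection. In zmnrl1-m at high nitrate they had 0.0696 ± 0.0611 and 1.12 ± 0.431 CPM (SD, n = 3).

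Some genes had no counts at all in one genotype. Among the called genes, 260 had 0 counts in the 3 B73 libraries and 143 had 0 counts in the 3 ZmNRL1-OE libraries. Most were weakly expressed in the other genotype, with medians of 0.79 CPM in ZmNRL1-OE for the 260 and 1.12 CPM in B73 for the 143; 35 and 40 of them reached 5 CPM. The pair with the highest level in ZmNRL1-OE was Zm00001d043124, at 71.8, 103 and 83.2 CPM, and Zm00001d004083, at 43.8, 55.6 and 52.3 CPM. Against a floor of 3 counts over the 3 B73 libraries they were at least 2990-fold and at least 1760-fold higher than in B73 (edgeR adjusted p = 1.85e-12 and 8.46e-12). The pair with the highest level in B73 was Zm00001d018704, at 303, 271 and 326 CPM, and Zm00001d017935, at 75.4, 73.2 and 76.5 CPM. They were at least 10900-fold and at least 2720-fold lower in ZmNRL1-OE (adjusted p = 3.44e-12 and 5.97e-13). In zmnrl1-m at high nitrate Zm00001d018704 had 47.7 ± 4.57 CPM, Zm00001d017935 had 2 counts over 3 libraries, Zm00001d043124 had 0.408 ± 0.034 CPM and Zm00001d004083 had 0 counts (SD, n = 3).

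The 260 and 143 genes were looked up in the low-nitrate libraries, which are on neither side of the comparison at high nitrate. Of the 260 genes without counts in B73 at high nitrate, 214 (82.3%) again had 0 counts in B73 at low nitrate, over 3 libraries, and 252 were called higher in ZmNRL1-OE there. Over all genes tested, 1.89% had 0 counts in B73 at low nitrate and 16.1% were called higher. Of the 143 genes without counts in ZmNRL1-OE, 103 (72.0%) again had 0 counts there at low nitrate and 137 were called lower, against 1.40% and 18.7% of all genes. At low nitrate zmnrl1-m had 0 counts for 103 of the 260 genes (39.6%) and for 43 of the 143 (30.1%), against 1.55% of all genes tested. The 260 and 143 genes were chosen for 0 counts in a genotype and were mostly weakly expressed in the other. All genes tested are therefore not a group of like level, and part of each contrast with them is built in.

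A further set of genes was chosen by the difference in reads. They differed by less in fold and by more in reads than the genes of largest fold, which follows in part from the choice. The genes with the largest differences in mean CPM were taken among called genes whose libraries did not overlap between genotypes. All were well expressed in both genotypes. Zm00001d025015 stood at 309, 283 and 314 CPM in B73 and at 997, 893 and 1040 CPM in ZmNRL1-OE, and was 3.24-fold higher (log2 difference 1.69 ± 0.16, SE, edgeR adjusted p = 4.22e-07). Zm00001d027700 stood at 223, 343 and 325 CPM in B73 and at 770, 708 and 744 CPM in ZmNRL1-OE, and was 2.50-fold higher (1.32 ± 0.28, adjusted p = 0.00164). In zmnrl1-m at high nitrate the means of these genes, in the same order, were 1110 ± 169 and 553 ± 80.1 CPM (SD, n = 3).

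By the same choice, the largest losses of reads in ZmNRL1-OE were in Zm00001d010920 and Zm00001d028360. Zm00001d010920 stood at 2690, 3020 and 3510 CPM in B73 and at 1810, 1520 and 1620 CPM in ZmNRL1-OE, 1.87-fold lower (log2 difference -0.90 ± 0.18, SE, edgeR adjusted p = 0.00129). Zm00001d028360 stood at 1320, 1530 and 1780 CPM in B73 and at 352, 272 and 268 CPM in ZmNRL1-OE, 5.18-fold lower (-2.37 ± 0.26, adjusted p = 2.22e-06). At high nitrate zmnrl1-m had 3140 ± 172 and 1340 ± 122 CPM (SD, n = 3). Per length, the authors' FPKM of Zm00001d010920 averaged 1770 in B73 and 985 in ZmNRL1-OE, and that of Zm00001d028360 averaged 1250 and 250.0.

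**Figure D2:**
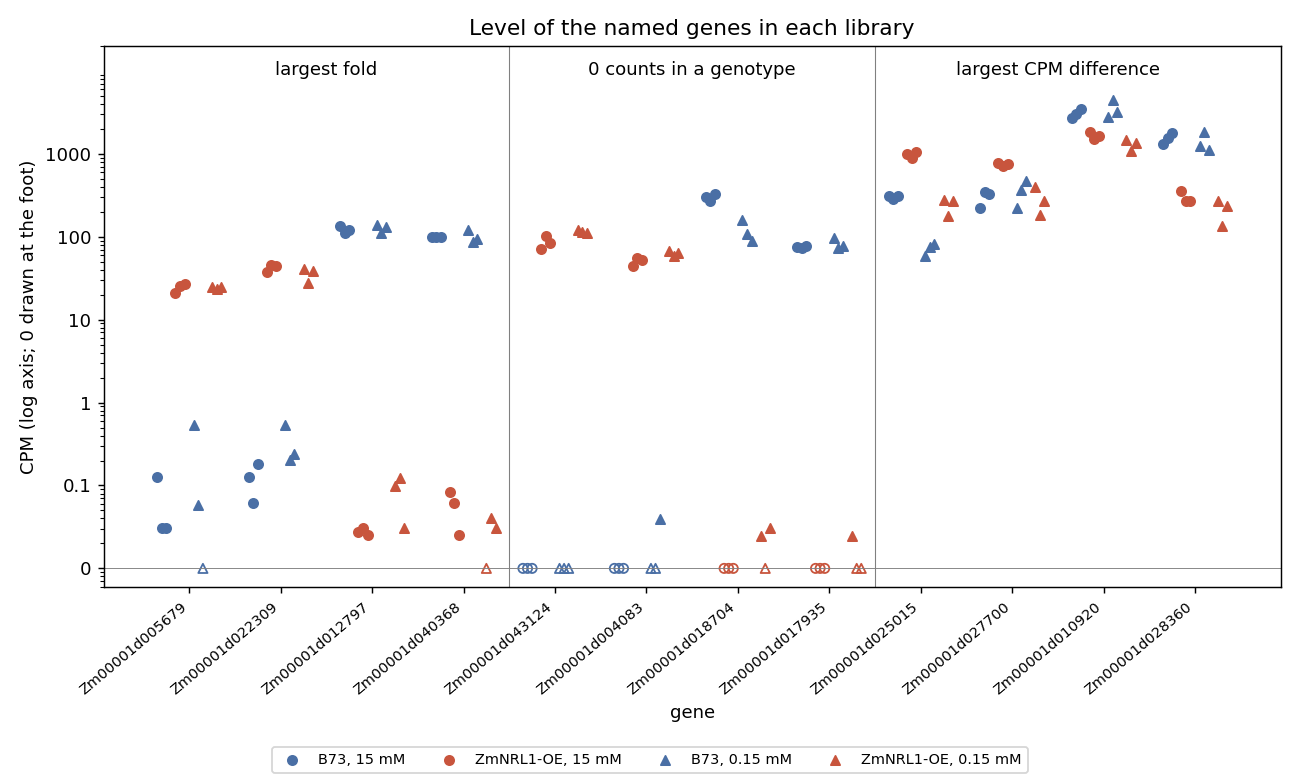
CPM of the 12 named genes (vertical axis, log scale with 0 drawn at the foot as open symbols) in each library of B73 (blue) and ZmNRL1-OE (red) at 15 mM (circles) and 0.15 mM nitrate (triangles), 3 libraries each. The genotypes are apart at 15 mM in all 12 genes, which follows from how the genes were chosen. At 0.15 mM the genotypes overlap in Zm00001d027700 alone among these genes.

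The difference between ZmNRL1-OE and B73 held at low nitrate for most genes. The comparisons at the 2 nitrate levels set different libraries against each other. They share the filter and the spread of each gene, which came from all 18 libraries. Of the 3957 genes higher at high nitrate, 3066 (77.5%) were higher again at low nitrate and 2 were lower, against 16.1% of all genes tested that were called higher there. Of the 3428 lower genes, 2786 (81.3%) were lower again and 3 were higher, against 18.7% of all genes called lower there. As shares of the low-nitrate lists, these are 70.1% of its 4376 higher genes and 54.8% of its 5080 lower genes. A difference of at least 2-fold at low nitrate was found in 7.34% of all genes as higher and 5.41% as lower, and any call in 34.8%, and 2569 genes were called and at least 2-fold apart the same way at both levels. The sizes were close too. The median log2 difference of the higher genes was 0.94 at high and 0.84 at low nitrate, and that of the lower genes -0.72 and -0.70.

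The larger the difference at high nitrate, the more often it was called at low nitrate. Of the 520 genes at least 16-fold higher, 509 (97.9%) were called higher again, with a median log2 difference of 6.62 at high and 6.87 at low nitrate. Of the 339 genes at least 16-fold lower, 330 (97.3%) were called lower again, with medians of -7.14 and -7.20. Among genes apart by under 1.5-fold the shares were 61.7% of 1171 higher and 77.0% of 1395 lower genes. The 889 higher and 639 lower genes that were not called at low nitrate mostly leaned the same way: 820 and 568 of them had the same sign there, with medians of 0.24 and -0.22 against 0.58 and -0.58 at high nitrate.

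The named genes followed this pattern with 1 exception. Zm00001d005679, Zm00001d022309, Zm00001d043124 and Zm00001d025015 had 24.4 ± 0.780, 35.6 ± 7.14, 115 ± 5.18 and 241 ± 55.5 CPM in ZmNRL1-OE at low nitrate, against 0.198 ± 0.295, 0.325 ± 0.184, 0 and 71.4 ± 11.2 CPM in B73 (SD, n = 3). Zm00001d028360 had 214 ± 71.6 CPM in ZmNRL1-OE and 1400 ± 390 CPM in B73 at low nitrate. Zm00001d027700 was the exception. It stood at 224, 363 and 472 CPM in B73 and at 396, 185 and 267 CPM in ZmNRL1-OE at low nitrate, overlapping ranges, with a log2 difference of -0.32 ± 0.27 (SE, edgeR adjusted p = 0.391). Its differences at the 2 nitrate levels were themselves 1.64 ± 0.39 apart (adjusted p = 0.224), which did not pass the test.

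**Figure D3:**
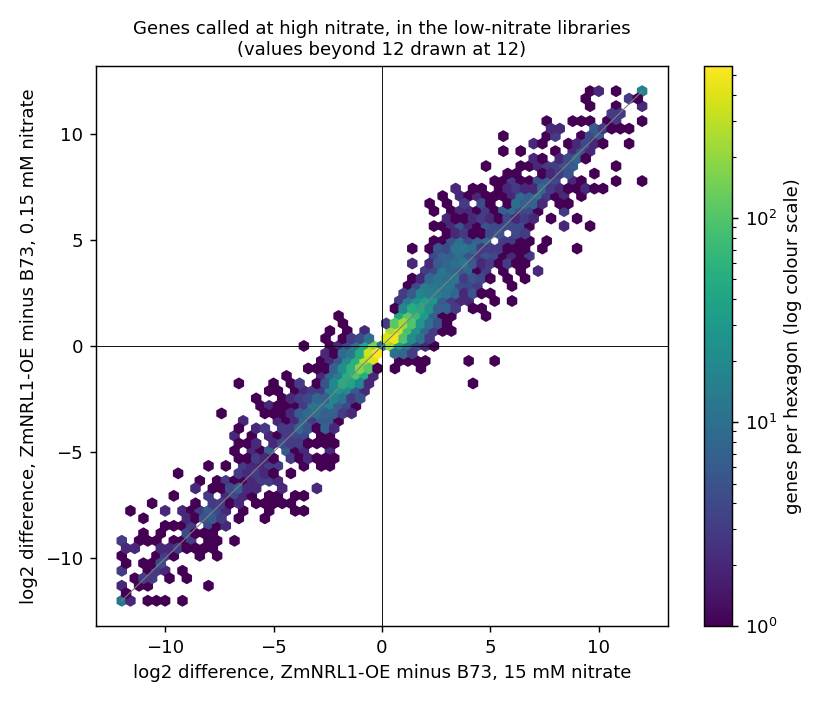
Log2 difference of ZmNRL1-OE minus B73 at 15 mM nitrate (horizontal axis) and at 0.15 mM nitrate (vertical axis) for the 7385 genes called at high nitrate, coloured by the number of genes per hexagon. The genes lie along the diagonal, and 5 of them were called in opposite directions.

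A genotype difference that depended on nitrate was found in 13 genes (0.0479% of those tested). It was tested as the log2 difference at high nitrate minus that at low nitrate, which was positive for 5 of the 13 genes (0.0184%) and negative for 8 (0.0295%). An unadjusted p under 0.05 was found for 1650 genes (6.08%). Of the 13 genes, 4 were higher in ZmNRL1-OE at both nitrate levels, 1 lower at both, 3 were called at high nitrate alone, 4 at low nitrate alone, and 1 in opposite directions. The count rested on single libraries. Without B73 high-nitrate replicate 3 or low-nitrate replicate 3 it was 4 or 8, and without ZmNRL1-OE high-nitrate replicate 1, low-nitrate replicate 2 or low-nitrate replicate 3 it was 7, 22 or 5.

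Zm00001d042828 had the largest such dependence. At high nitrate it stood at 5.77, 7.52 and 4.86 CPM in B73 and at 0.556, 0.365 and 0.427 CPM in ZmNRL1-OE. At low nitrate it stood at 1.25, 0.921 and 0.514 CPM in B73 and at 1.01, 0.528 and 1.03 CPM in ZmNRL1-OE. The genotypes were thus apart at high nitrate, with B73 the higher, and overlapped at low nitrate; the differences were -3.71 ± 0.46 apart (SE, edgeR adjusted p = 0.00347). Zm00001d042278 was higher in ZmNRL1-OE at both nitrate levels and more so at low nitrate. It stood at 0.513, 0.768 and 0.611 CPM in B73 and at 32.6, 35.8 and 36.5 CPM in ZmNRL1-OE at high nitrate. At low nitrate B73 had 6 counts in all, 0.0753 ± 0.0162 CPM, and ZmNRL1-OE 41.5 ± 1.05 CPM (SD, n = 3). The 2 differences were -3.28 ± 0.35 apart (adjusted p = 0.000866), through the level in B73 more than that in ZmNRL1-OE.

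Zm00001d018737 and Zm00001d052209 were lower in ZmNRL1-OE at low nitrate, while at high nitrate their log2 differences were 0.54 ± 0.29 and 0.17 ± 0.22 (SE), which did not pass the test (edgeR adjusted p = 0.179 and 0.633). Zm00001d018737 stood at 49.8, 68.7 and 56.2 CPM in B73 and at 46.1, 108 and 101 CPM in ZmNRL1-OE at high nitrate, and at 63.8 ± 15.3 and 13.6 ± 4.18 CPM at low nitrate (SD, n = 3). Zm00001d052209 stood at 4.54, 3.10 and 4.03 CPM and at 4.0, 4.84 and 4.32 CPM at high nitrate, and at 10.3 ± 2.60 and 2.60 ± 0.541 CPM at low nitrate. Their differences were 2.77 ± 0.42 and 2.14 ± 0.32 apart (SE, edgeR adjusted p = 0.0184 and 0.0169). Zm00001d018737 lost its call in 7 of 21 alternative settings and Zm00001d052209 in 3 of 21, with adjusted p from 1.48e-07 to 0.0775 and from 7.49e-07 to 0.0716. Both calls were lost without B73 high-nitrate replicate 3, ZmNRL1-OE high-nitrate replicate 2 or ZmNRL1-OE low-nitrate replicate 3. That of Zm00001d018737 was also lost without B73 high-nitrate replicate 1, B73 low-nitrate replicate 3 or ZmNRL1-OE high-nitrate replicate 3, and in the fit of the 12 libraries of B73 and ZmNRL1-OE alone.

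Genes that differed between ZmNRL1-OE and B73 lay in stretches of the genome annotation. Identifiers of this annotation were numbered for the most part in order along the assembled chromosomes, so genes with neighbouring identifiers are usually neighbours. In identifier order, the gene next to a called gene was itself called in 36.2% of cases, against 27.2% over all genes. The share was 32.1% at a distance of 10 tested genes, 29.1% at 100 and 27.6% at 500. Next neighbours that were both called had the same direction in 57.5% of 2670 pairs, and in 51.0% of 2370 pairs at a distance of 10. Reads of overlapping or duplicated neighbours can be shared between them, and the strand setting of the counting is not given in the sources used here.

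**Figure D4:**
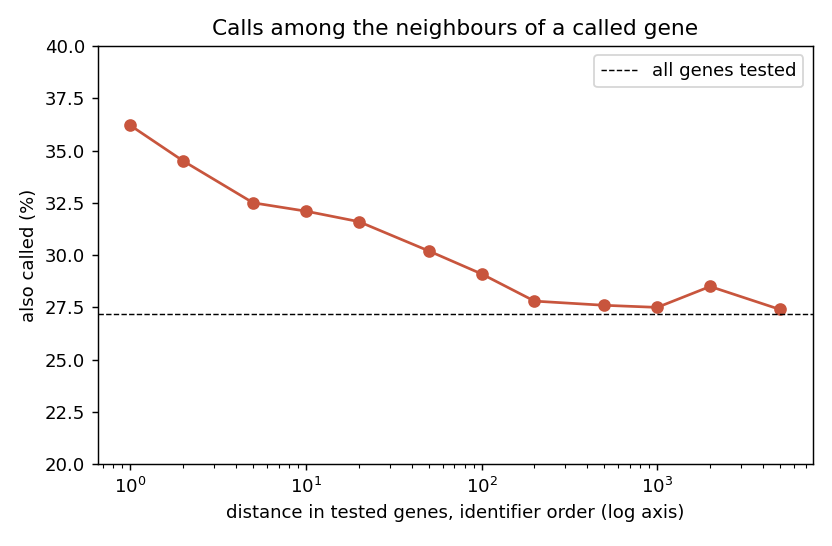
Percentage of genes that were also called (vertical axis) at a given distance in tested genes from a called gene, in identifier order (horizontal axis, log scale); the dashed line is the share over all genes tested, 27.2%. The share declined from 36.2% at the next gene to 27.8% at a distance of 200.

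Windows of 100 consecutive tested genes showed the same at a larger scale. Of 271 windows, 52 had at least 40% of their genes called and 109 at most 20%, within a range of 8% to 55%. The shares of neighbouring windows correlated with r = 0.538. The low-nitrate libraries gave nearly the same order of windows: Spearman's rho of the share called at high and at low nitrate was 0.905 over the 271 windows. The 2 shares are not fully independent, since the filter and the spread of each gene came from all 18 libraries. In the 52 windows with at least 40% called at high nitrate, 39% to 60% were called at low nitrate, and in the 109 windows with at most 20% it was 18% to 33%, so these ranges did not overlap. The windows share their genes and their sequencing depth in the 2 comparisons. Against the median CPM of a window, rho was -0.0795 for the share called, -0.18 for the share called higher and 0.0371 for the share called lower. For the share apart by at least 2-fold, called or not, it was -0.23.

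Other comparisons gave another order of windows. The share of genes called between zmnrl1-m and B73 at low nitrate came from libraries on neither side of the comparison at high nitrate. It had rho = 0.142 with the share in ZmNRL1-OE at high nitrate, although it varied almost as widely (24% to 68%). Its values in neighbouring windows correlated with r = 0.46, so calls lay in stretches in this comparison too. The nitrate response of zmnrl1-m, low against high nitrate, gave shares of 8% to 34%, with rho = -0.0718, and the shares of neighbouring windows correlated with r = 0.0974.

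The windows with many called genes formed long runs. Runs of at least 5 adjacent windows above the overall share were formed after the shares had been seen. There were 6 such runs with 6300 genes, 23.2% of those tested, and 13 runs below the overall share with 12200 genes. The longest run above held 1800 tested genes, from Zm00001d039426 to Zm00001d043103, and the next longest 1200 and 1100, from Zm00001d031723 to Zm00001d033901 and from Zm00001d052016 to Zm00001d054057. Since the shares at high nitrate fixed the runs, the low-nitrate libraries are the ones to compare. There 42.9% to 45.9% of the genes were called in each run above, and 24.8% to 31.7% in each run below, against 34.8% of all genes tested. For zmnrl1-m against B73 at low nitrate the same runs gave 39.6% to 52.3% and 32.6% to 53.2%, against 44.8% of all genes tested.

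Lower genes and genes without counts in ZmNRL1-OE were more frequent in the runs above than in the runs below, a description with no test. At low nitrate, 25.6% of the genes in the runs above and 13.7% of those in the runs below were called lower, and 19.2% and 14.0% were called higher. Of all genes tested, 18.7% were called lower there and 16.1% higher. At least 4-fold lower at low nitrate were 301 of the 6300 genes in the runs above and 123 of the 12200 in the runs below, and at least 4-fold higher were 361 and 355. Of the 8634 tested genes outside all runs, 274 were at least 4-fold lower and 336 at least 4-fold higher. Either way, these were 10.5% of the genes in the runs above, 3.92% in the runs below and 7.07% outside. Genes at least 4-fold higher were thus also more frequent in the runs above than in the runs below. Genes with at least 1 CPM in B73 and 0 counts in ZmNRL1-OE at low nitrate that were called numbered 33 of the 6300 and 6 of the 12200. The reverse, 0 counts in B73 and at least 1 CPM in ZmNRL1-OE, was found for 35 of the 6300 and 58 of the 12200 genes. Outside all runs the former numbered 29 and the reverse 32 of the 8634 genes.

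**Figure D5:**
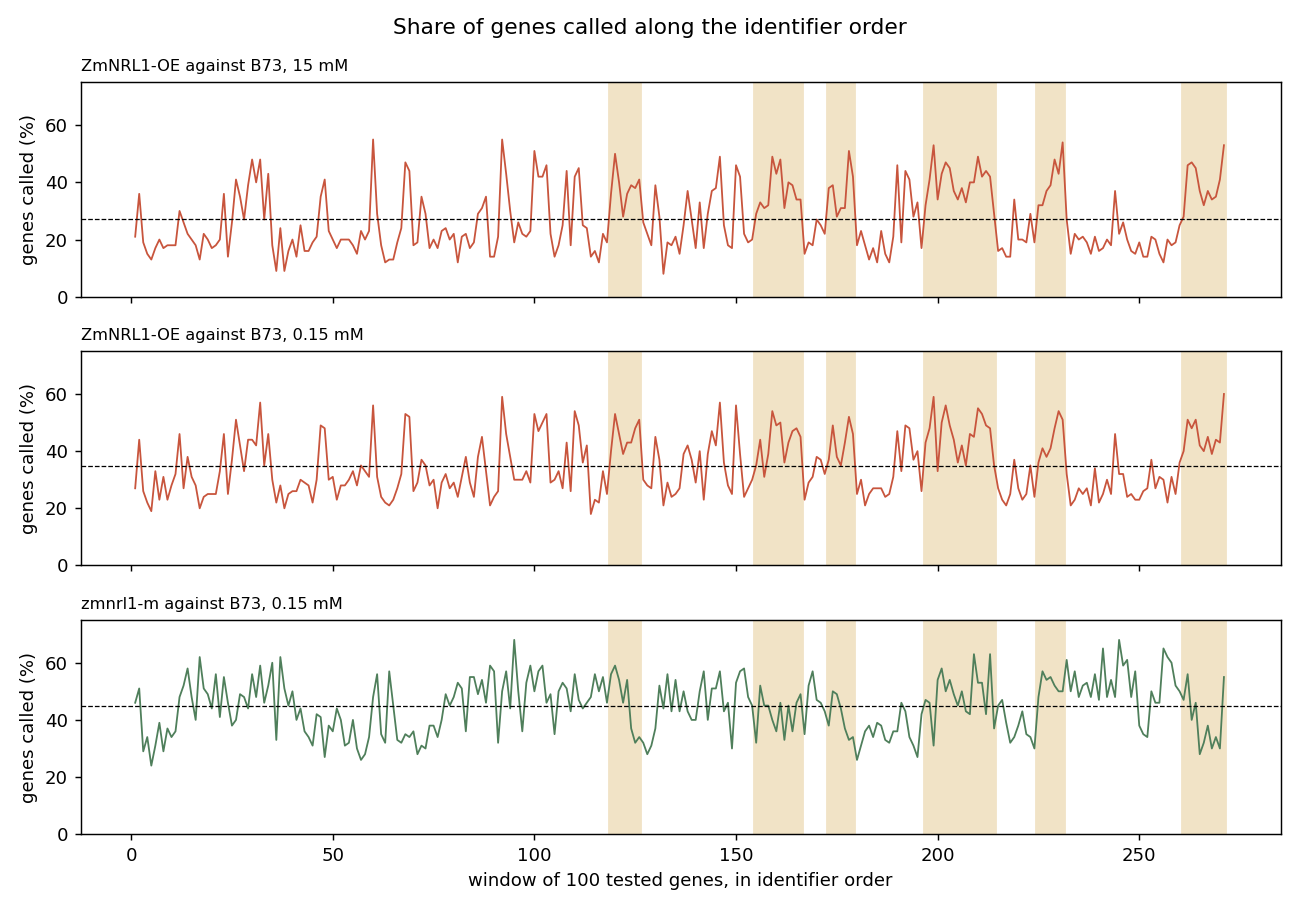
Percentage of genes called (vertical axes) in windows of 100 tested genes along the identifier order (horizontal axis), for ZmNRL1-OE against B73 at 15 mM, the same at 0.15 mM, and zmnrl1-m against B73 at 0.15 mM; dashed lines are means over windows. The 6 shaded runs, formed from the top panel, held 42.9% to 45.9% called genes in the middle panel and 39.6% to 52.3% in the bottom one.

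Genes that differed in ZmNRL1-OE were compared with the difference of zmnrl1-m from B73 at low nitrate, whose libraries are not among the 6. Of the 3957 genes higher in ZmNRL1-OE at high nitrate, 1473 (37.2%) were called higher and 591 (14.9%) lower in zmnrl1-m, where 22.0% of all genes were called higher, 22.8% lower and 44.8% either way. Of the 3428 lower genes, 1313 (38.3%) were called lower and 424 (12.4%) higher in zmnrl1-m. The shared calls were 24.7% of the genes higher and 21.2% of those lower in zmnrl1-m. With at least 2-fold required of both lines, 667 of the 1873 genes higher in ZmNRL1-OE were higher and 158 lower in zmnrl1-m, where 8.30% and 9.85% of all genes were. Of the 1286 lower genes, 510 were lower and 91 higher. The overexpression line and the mutant thus differed from B73 in the same direction more often than in opposite ones. Since both are set against the same genotype, though in different libraries, part of this agreement is built in. The size of that part was not tested. The mutant medians followed the size of the difference in ZmNRL1-OE: 2.42 on the log2 scale for the 520 genes at least 16-fold higher, 0.06 for those under 1.5-fold higher, and -1.47 and -0.03 for the corresponding lower genes.

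Genes that respond to nitrate were taken from zmnrl1-m, since its libraries enter neither side of the comparison. A gene that responds in B73 or ZmNRL1-OE but not in this mutant is absent from the lists. They thus do not stand for nitrate-responsive genes in general. In all 17.9% of genes responded in zmnrl1-m, 8.89% raised and 8.97% lowered at low nitrate. Of the 2413 raised genes, 415 (17.2%) were higher and 315 (13.1%) lower in ZmNRL1-OE than in B73 at high nitrate, where 14.6% and 12.6% of all genes were. Of the 2433 lowered genes, 350 (14.4%) were higher and 322 (13.2%) lower. In these full lists the shares lay close to those of all genes. In the lists changed at least 2-fold, given below, they lay further from them, which was not tested. The mean log2 CPM of the 2413 raised genes was 3.35, 3.38 and 3.46 in B73 and 3.46, 3.44 and 3.43 in ZmNRL1-OE at high nitrate. That of the 2433 lowered genes was 4.29, 4.11 and 4.13 in B73 and 4.10, 4.25 and 4.14 in ZmNRL1-OE, and the libraries of the 2 genotypes overlapped in both lists. With a 2-fold change in zmnrl1-m required, which 2.74% of all genes met as raised and 2.47% as lowered, 20.8% of 744 raised genes were higher in ZmNRL1-OE and 13.6% lower, with a median log2 difference of 0.145. For the 669 lowered genes these were 12.6%, 16.3% and -0.015.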

How the data were processed

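The authors deposited raw read counts per gene and FPKM values, each for 41632 genes and 18 libraries. FPKM was 0 exactly where counts were 0, and the implied gene length varied by at most 0.0393% (coefficient of variation, 19280 genes with over 50 counts in every library). The submitters' processing notes name HISAT2 2.2.1, featureCounts 2.0.1, Trim Galore 1.18 and bcl2fastq 2.19.1 as tools and B73 RefGen_v4 as the build. No source used here gives their settings, so genes that overlap, lie antisense or have near-identical copies are uncertain. None of the identifiers was found in the RefSeq gene table at hand, so gene lists by name were not tested and no sequence is shown.

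Counts were filtered with filterByExpr (minimum count 10), scaled by TMM and fitted with glmQLFit and glmQLFTest of edgeR 4.0.16 (R 4.3.3) in one model of 6 groups with 12 residual degrees of freedom; the fit was tested on simulated data. Standard errors are the absolute log2 difference divided by the root of the F statistic. DESeq2 1.42.0, limma 3.58.1 on log2(FPKM + 1) and on log2(FPKM + 0.1), other scalings and filters, smaller sets of libraries and leaving out each library were alternatives. Named genes are at most 2 higher and 2 lower per class: largest fold, 0 counts in a genotype, largest difference in mean CPM, and largest dependence on nitrate. The largest fold and the largest difference in mean CPM were taken among called genes whose libraries did not overlap between genotypes. No replicate was taken for a duplicate, with chi-square values per degree of freedom between 11.3 and 25.1 within groups. The comparison, its lists and its tests were chosen with earlier results of these data known. Intervals and floors cover counting error only.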

Additional observations from a re-analysis of the deposited data

Results flagged for a closer look

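For 4 named genes the difference between ZmNRL1-OE and B73 changed with nitrate supply, by a test of that change itself. The log2 difference at high nitrate minus that at low nitrate was -3.71 for Zm00001d042828, -3.28 for Zm00001d042278, 2.77 for Zm00001d018737 and 2.14 for Zm00001d052209, with edgeR adjusted p of 0.00347, 0.000866, 0.0184 and 0.0169. The direction was the same in all 21 alternative settings for each gene. The values ranged from -3.99 to -1.98, from -3.42 to -0.56, from 2.54 to 3.06 and from 1.57 to 2.29, in the same order of genes, and the calls of Zm00001d018737 and Zm00001d052209 were lost in 7 and 3 of them.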

How the results depend on the processing

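The counts of genes called higher and lower at high nitrate stayed within 1.5 times their value under every alternative of tool, scaling, filter, unit, replicate block and set of groups fitted that was run, at 3372 to 4661 higher and 2684 to 3590 lower genes, while a required 2-fold difference left 1873 and 1286. Leaving out 1 library gave 3070 to 4005 higher and 2561 to 3030 lower genes. Genes called in the same direction at low nitrate numbered 5852, 2569 with a 2-fold difference required at both levels, and 4821 to 5818 with 1 library left out. The 13 genes whose difference depended on nitrate became 104 with DESeq2, 20 without the filter on low counts, 41 and 24 with limma on log2(FPKM + 1) and log2(FPKM + 0.1), 6 with the 12 libraries of B73 and ZmNRL1-OE alone, and 4 to 22 with 1 library left out; the cause was not tested. The share of nitrate-raised genes of zmnrl1-m that were higher in ZmNRL1-OE, 17.2%, was 20.8% for genes changed at least 2-fold, 20.3% with library sizes alone (17.2% of all genes), and 12.8% to 16.7% with 1 library left out (11.2% to 14.6% of all genes). The highest share of called genes in a window was 64% with windows of 50, 46% with windows of 200, 54% in the row order of the count table, an order added after the data had been seen, and 50% to 53% with 1 library left out. The 12 genes named for their difference at high nitrate kept their direction and their call in all 15 alternatives. Their log2 sizes from FPKM were smaller where a genotype was near 0, as the pseudocount sets a floor. The same holds for genes named for their dependence on nitrate: with limma on log2(FPKM + 1) and log2(FPKM + 0.1), Zm00001d042278 had -0.56 and -1.71, Zm00001d042828 -1.98 and -3.37, and Zm00001d052209 1.57 and 2.06.

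With the replicate number as a block, 3756 genes were called higher and 3151 lower, 14 for the dependence on nitrate, and 5519 again at low nitrate. The deviations of same-numbered high-nitrate libraries of the 2 genotypes from their group means correlated with r = -0.0854, -0.116 and -0.0572. With 3 libraries per group these values cannot show whether same-numbered libraries were grown or processed together.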

Other observations

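Among the 13 genes with a genotype difference that depended on nitrate, 2 had consecutive identifiers and moved in opposite ways; they were singled out after their values had been seen. Zm00001d038717 stood at 3.72, 3.01 and 3.76 CPM in B73 and at 24.8, 15.4 and 29.0 CPM in ZmNRL1-OE at high nitrate, and at 40.3 ± 2.71 and 62.7 ± 15.7 CPM at low nitrate (SD, n = 3). Zm00001d038718 stood at 144, 80.5 and 90.1 CPM in B73 and at 129, 104 and 137 CPM in ZmNRL1-OE at high nitrate, and at 16.1 ± 4.61 and 72.9 ± 10.8 CPM at low nitrate. The genotypes were thus apart at high nitrate in the former and overlapped in the latter. The log2 differences at high minus low nitrate were 2.09 ± 0.35 and -1.95 ± 0.32 (SE, edgeR adjusted p = 0.0338 and 0.0298). Whether reads are shared between these neighbours was not tested.

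The 5 genes called in opposite directions at the 2 nitrate levels differed by small amounts, between -0.85 and 0.59 on the log2 scale at high nitrate and between -0.93 and 0.64 at low nitrate. One of them, Zm00001d039166, passed the test of the change itself, with log2 differences of -0.64 at high and 0.50 at low nitrate (edgeR adjusted p = 0.000866); it is named here after its values had been seen.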
